A study of Mus musculus with 6 samples.

Results

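The genes described here are 32 regulators and targets of the tumour suppressor p53, chosen by symbol. They are p53 itself and its relatives, the proteins that hold it down, and genes counted here as its targets. All 32 had a probe set on the array, out of 22084 genes tested. The brightest probe set, by its mean signal, stood for each gene, and only Ppm1d and Sfn among the 32 had more than 1. The cells were MA-10, a mouse Leydig tumour line, and every sample came from this 1 line. In 3 samples the cells had received siRNA (short double-stranded RNA that destroys matching transcripts) aimed at both MEF2A and MEF2D, 2 transcription factors of the MADS family (siRNA MEF2), and in the other 3 a scrambled siRNA (siRNA control), each for 48 h before total RNA was extracted and read on a 1-colour Affymetrix whole-transcript array. The question put here is whether p53 target genes moved together when MEF2 was lowered.

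p53 is a transcription factor that is made all the time and destroyed just as fast, because the ubiquitin ligase MDM2 tags it for degradation. DNA damage and other stress break that hold, and the stabilised protein then binds its response elements and turns on genes that stop the cell cycle, repair DNA or kill the cell. Some of its targets, among them Mdm2 and Ppm1d, feed back to switch it off. Because p53 is controlled mainly as a protein, its activity is often read from its targets and not from its own transcript.

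Mef2a read a log2 signal of 9.80, 10.12 and 10.10 in siRNA MEF2 samples, against 10.80, 10.80 and 10.78 in control samples. Mef2d read 10.60, 10.84 and 10.92 in siRNA MEF2 samples, against 11.22, 11.31 and 11.22 in control samples. The knockdown was thus partial (log2 difference -0.78 and -0.46, limma adjusted p = 8.44e-05 and 0.00205), and the groups did not overlap for either gene. Array medians of the log2 signal ran from 7.82 to 7.89. Probe sets that the file annotates as negative controls had median log2 signals of 7.16, 7.40 and 7.53 on the siRNA MEF2 arrays and 7.28, 7.35 and 7.34 on the control arrays. Of the 6 Leydig cell markers that could be read, 5 lay above all 6 of these control medians in both groups, and the exception was Hsd3b1. Of 12 markers of Sertoli, germ, macrophage and endothelial cells, 5 did so (Sox9, Dhh, Ddx4, Cd68 and Cdh5). Within those 5, siRNA MEF2 minus siRNA control was -0.54 for Cd68, -0.42 for Cdh5, 0.40 for Ddx4, -0.14 for Dhh and 0.04 for Sox9. The rest of the 12 ran from -0.07 (Pecam1) to 0.13 (Csf1r), with 0.10 for Adgre1, 0.09 for Kdr and 0.06 for Dazl. The 6 Leydig markers ran from -0.91 (Star) to 0.45 (Lhcgr). The part of these markers in the results below was not tested. In bulk RNA of a cell line, fewer cells that express a gene and less of its RNA per cell cannot be told apart.

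The p53 genes moved in both directions, and most did not pass. Of the 32 genes, 5 fell (Ei24, Plk3, Sfn, Ppm1d and Sesn1), 3 rose (Fas, Xpc and Btg2) and 24 did not pass the test, which was a limma adjusted p under 0.05. Over all 22084 genes 20.7% were called, as 11.7% fell and 9.04% rose, against 15.6% and 9.38% of the p53 genes, so both shares were near the background. The median log2 difference, siRNA MEF2 minus siRNA control, was 0.04 over the 32 genes and 0.04 over all genes. The median size of the difference regardless of sign was 0.12 for the p53 genes and 0.11 for all genes. Differences ran from -0.52 to 0.31, with 15 genes below 0 and 17 above. The siRNA MEF2 and control values did not overlap for 11 of the 32, while such a separation was seen for 40.8% of all genes. Without siRNA control replicate 2 the test called 3 lower and 2 higher. With the dimmer probe set of Sfn, described below, it called 4 lower and 3 higher.

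**Figure D1:**
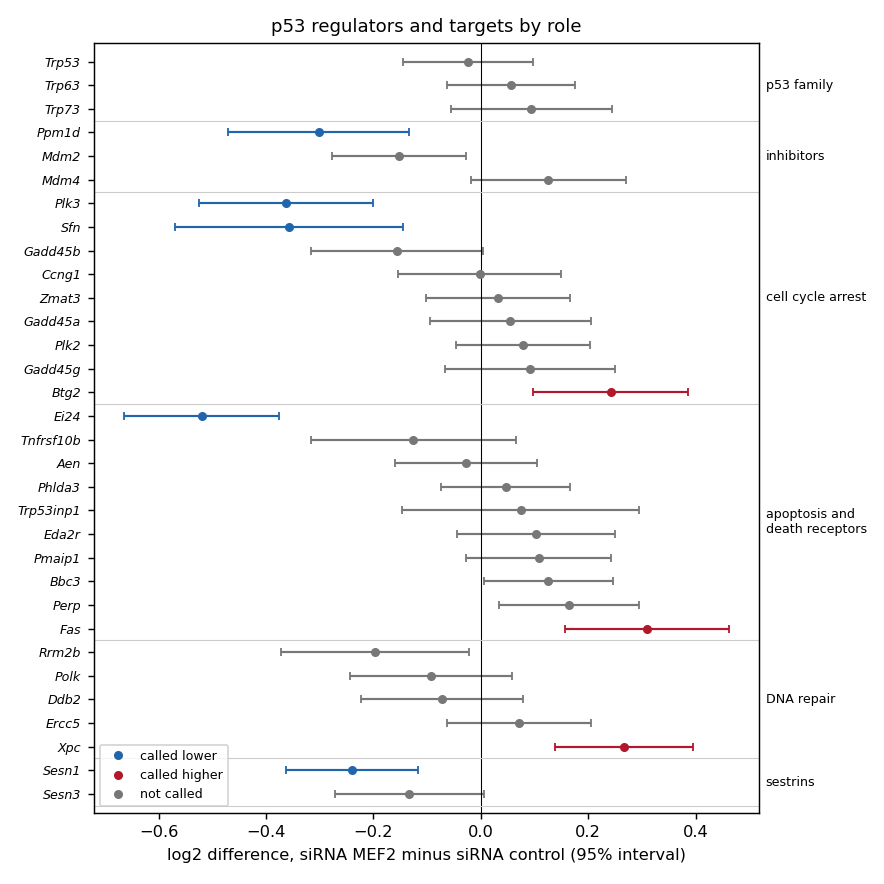
Log2 difference, siRNA MEF2 minus siRNA control, of each of the 32 p53 genes, grouped by role, with bars for the 95% interval of the limma fit (3 arrays per group). Lower and higher calls both occur among the cell cycle genes and the apoptosis genes, and the range is -0.52 (Ei24) to 0.31 (Fas).

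The sign of a difference went with the strength of the signal on these arrays, for all genes and for the p53 genes. In the lower signal deciles the median difference of all genes was above 0, with 0.11 in the fourth, and in the upper ones it was below 0, with -0.08 in the eighth. Of the 12 p53 genes below the median signal of 7.85, 11 had a difference above 0, and 1 fell and 2 rose. Among all genes below that median 1.44% fell and 11.3% rose. Of the 20 p53 genes at or above it, 14 had a difference below 0, and 4 fell and 1 rose. Among all genes there 21.9% fell and 6.8% rose. The part of signal strength in single calls was not tested. Over all 32 genes, whatever their signal, 5 fell and 3 rose as deposited. Quantile normalization and cyclic loess both bring arrays to a common curve, and the calls by signal were not counted again after them. After quantile normalization 2 of the 32 fell and 1 rose (7.7% and 6.23% of all genes), and after cyclic loess 3 fell and 1 rose (8.71% and 5.29% of all genes). Centring the arrays on their medians gave 7 lower and 2 higher (16.3% and 3.74% of all genes).

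**Figure D2:**
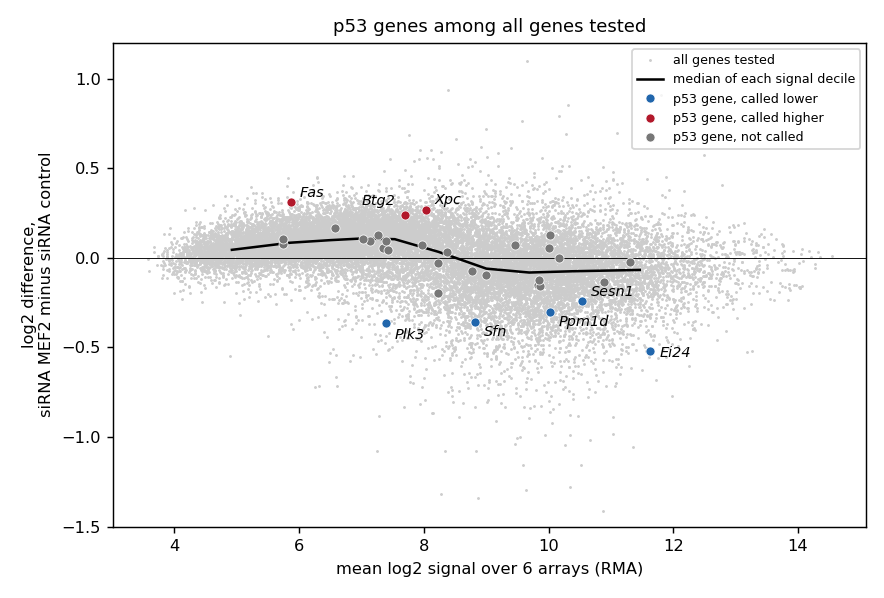
Mean log2 signal over the 6 arrays against the log2 difference, siRNA MEF2 minus siRNA control, for all 22084 genes (grey) and the 32 p53 genes (coloured by call), with the median of each signal decile as a line. Fas, Btg2 and Xpc lie on the side where the line is above 0 and Ei24, Sesn1, Ppm1d and Sfn on the side where it is below, while Plk3 fell among genes whose median was above 0.

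Promoter sequences are shown for 3 genes that fell and 1 that did not pass. In the first 3 the search found only letters that match a single arm of the p53 response element. In the other it found letters that match a pair of arms, with 1 mismatch. RefSeq promoter windows (GRCm38.p6), from 250 bases before to 50 after each annotated start, were at hand for 23 of the 32 genes and held 30 windows. The p53 half-site is the decamer that forms 1 arm of the response element and reads alike on both strands. It occurred in 10 of these 30 windows (33.3%), against 8.36% of 32851 windows of all genes. Windows of 1 gene can overlap, and 2 windows of Aen share 1 site. By gene the half-site occurred in 9 of 23, against 2582 of 27025 genes with windows. Among 24 further p53 targets the half-site occurred in 3 of the 31 windows at hand (9.68%). A stricter search for 2 such decamers in a row, with up to 2 mismatches over the pair, found Ccng1 and Trp73 (2 of 30 windows, against 0.326% of all windows). Among the further targets it found Cdkn1a, with 1 mismatch (1 of 31 windows, 3.23%). Pairs with a spacer and sites outside these windows were not searched, and binding of p53 was not measured. The consensus of MEF2 was in 0 of the 30 windows and in 3.19% of all windows, which says only that its letters are not in these stretches. Among the 9 genes with a half-site 3 fell and 0 rose. Among the 14 with windows but no half-site 2 fell and 2 rose, where 11.7% of all genes fell and 9.04% rose. All 9 lie above the median signal of 7.85, where 21.9% of all genes fell and 6.8% rose. Most of the 14 lie below it, where 1.44% fell and 11.3% rose. The groups with and without a half-site are small, and the difference between them was not tested. Of the 9, 6 did not pass (Trp53, Mdm2, Ccng1, Gadd45a, Polk and Aen), and of these only Ccng1 is printed. Ei24 (chr9:36797285-36797584, minus strand), Sesn1 (chr10:41887189-41887488, plus strand), Ppm1d (chr11:85311004-85311303, plus strand) and Ccng1 (chr11:40755237-40755536, minus strand) are printed along the gene's strand. Capitals mark the half-site in the first 3, whose first base lies at -10 in Ei24, -173 in Sesn1 and -132 in Ppm1d, counted from the annotated start. In Ccng1 they mark the pair, which begins at -195 and includes that window's single half-site.

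Ei24: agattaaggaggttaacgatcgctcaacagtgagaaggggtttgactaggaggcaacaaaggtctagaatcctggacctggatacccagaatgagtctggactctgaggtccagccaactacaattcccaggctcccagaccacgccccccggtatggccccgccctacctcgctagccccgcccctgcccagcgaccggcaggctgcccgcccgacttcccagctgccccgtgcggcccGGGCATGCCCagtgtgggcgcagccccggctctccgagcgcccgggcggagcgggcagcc

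Sesn1: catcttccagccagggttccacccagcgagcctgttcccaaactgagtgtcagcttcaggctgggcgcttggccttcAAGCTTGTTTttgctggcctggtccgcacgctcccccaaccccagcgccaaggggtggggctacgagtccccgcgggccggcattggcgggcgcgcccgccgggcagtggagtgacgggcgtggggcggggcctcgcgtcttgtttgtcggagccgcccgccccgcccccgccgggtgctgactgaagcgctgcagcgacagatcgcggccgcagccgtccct

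Ppm1d: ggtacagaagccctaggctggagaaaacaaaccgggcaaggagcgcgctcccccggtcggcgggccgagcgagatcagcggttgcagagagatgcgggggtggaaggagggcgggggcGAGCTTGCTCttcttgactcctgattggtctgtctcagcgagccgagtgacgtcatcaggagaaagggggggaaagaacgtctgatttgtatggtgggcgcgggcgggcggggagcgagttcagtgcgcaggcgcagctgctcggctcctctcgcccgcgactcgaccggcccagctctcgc

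Ccng1: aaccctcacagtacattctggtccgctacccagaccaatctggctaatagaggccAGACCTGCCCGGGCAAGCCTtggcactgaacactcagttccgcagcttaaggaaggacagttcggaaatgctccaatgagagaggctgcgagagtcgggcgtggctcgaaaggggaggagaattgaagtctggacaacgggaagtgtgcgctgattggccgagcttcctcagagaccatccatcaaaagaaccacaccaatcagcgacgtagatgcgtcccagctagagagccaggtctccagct

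The p53 family itself did not pass the test. Trp53, which encodes p53, read a log2 signal of 11.34, 11.28 and 11.26 in siRNA MEF2 replicates 1 to 3, against 11.32, 11.29 and 11.35 in the control samples. The 2 ranges overlapped and the difference was -0.02, with a 95% interval from -0.14 to 0.10 and an adjusted p of 0.782. Trp63 and Trp73, whose products are built like p53 and act mainly in epithelial and neural development, differed by 0.06 and 0.09 (adjusted p = 0.47 and 0.337). Their means in both groups fell between or below the negative control medians of the arrays, which ran from 7.16 to 7.53. All 3 of these differences changed sign under quantile normalization and cyclic loess.

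Among the inhibitors of p53, Ppm1d fell. It encodes the phosphatase WIP1, which removes activating phosphates from p53 and from the damage kinase ATM, and it is a p53 target itself. Its log2 signal was 9.98, 9.96 and 9.68 with siRNA MEF2, against 10.15, 10.21 and 10.16 with control siRNA. Every siRNA MEF2 value lay below every control value, with replicate 3 the lowest, and the mean fell to 9.87 ± 0.17 in siRNA MEF2, against 10.17 ± 0.04 in control (SD, n = 3 each; log2 difference -0.30, SE 0.08, 1.23-fold lower, limma adjusted p = 0.0185). The second probe set of Ppm1d, which is dimmer, differed by -0.09. The call was lost with the mean over both probe sets (adjusted p = 0.0591), with quantile normalization (0.0939) or cyclic loess (0.0801), and without siRNA control replicate 2 (0.0659).

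Mdm2 had log2 signals of 9.78, 9.81 and 9.68 in siRNA MEF2 samples, against 9.91, 9.91 and 9.91 in control samples. The groups did not overlap, yet the difference of -0.15 (95% interval -0.28 to -0.03) did not pass over all genes (adjusted p = 0.076). It passed after median centring, with -0.20 and an adjusted p of 0.021. Mdm4, which binds p53 much as MDM2 does and blocks its activating domain, differed by 0.13 (95% interval -0.02 to 0.27, adjusted p = 0.188).

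Of the 9 targets that act mainly on growth and the cell cycle, Plk3 and Sfn fell and Btg2 rose. Among all genes 11.7% fell and 9.04% rose. Plk3, a stress-responsive kinase of the polo family, read 7.18, 7.36 and 7.09 in siRNA MEF2 samples and 7.50, 7.67 and 7.55 in control samples. All siRNA MEF2 values were below all control values, and the mean log2 difference was -0.36 (SE 0.07, adjusted p = 0.00636). These signals lie around the negative control medians, so no fold is given, but the call held in all 13 alternatives in which Plk3 was tested. Its relative Plk2 differed by 0.08 (adjusted p = 0.337) at a mean signal of 5.75, below those medians.

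Sfn, which encodes 14-3-3 sigma, a protein that keeps mitotic cyclin-dependent kinase out of the nucleus after damage, read 8.65, 8.79 and 8.47 in siRNA MEF2 samples, against 8.77, 9.12 and 9.09 in control samples. Control replicate 1 was low, just under siRNA MEF2 replicate 2, so the groups overlapped. The difference was -0.36 (SE 0.10, 1.28-fold lower, adjusted p = 0.0246). The probe set that stands for Sfn has as its neighbours in number 8 probe sets that name genes of chromosome 8, whereas Sfn is on chromosome 4. The dimmer probe set, with 6 of 6 named neighbours on chromosome 4, differed by -0.22 and did not pass (adjusted p = 0.154), so the fall of Sfn as a gene is uncertain. The call of the brighter probe set was also lost after quantile normalization (0.0632), with the mean over both probe sets (0.0615), and without siRNA MEF2 replicate 3 (0.0727), control replicate 2 (0.0967) or control replicate 3 (0.0836).

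Btg2, an antiproliferative gene whose product speeds the removal of messenger RNA tails, had log2 signals of 7.87, 7.79 and 7.78 with siRNA MEF2 and 7.60, 7.45 and 7.67 with control siRNA. Each siRNA MEF2 value was above each control value, and the difference was 0.24 (SE 0.07, adjusted p = 0.025). This call was lost in 7 of 13 alternatives. They were median centring (adjusted p = 0.0621), quantile normalization (0.0993), cyclic loess (0.101) and the fits without siRNA MEF2 replicate 1 (0.0637), siRNA MEF2 replicate 2 (0.06), control replicate 1 (0.0514) or control replicate 2 (0.0999).

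The other 5 growth genes gave no call. Ccng1, encoding cyclin G1, a long-known p53 target, read 10.31, 10.13 and 10.06 in siRNA MEF2 samples and 10.11, 10.22 and 10.17 in control samples. The ranges overlapped and the difference was -0.0019 (95% interval -0.15 to 0.15, adjusted p = 0.987). The Gadd45 genes, whose products bind stress kinases and the replication clamp, differed by 0.05 (Gadd45a), -0.16 (Gadd45b) and 0.09 (Gadd45g), with adjusted p of 0.584, 0.144 and 0.376. For Gadd45b siRNA MEF2 replicate 1 read 9.95, inside the control range, while replicates 2 and 3 read 9.65 and 9.75. Without replicate 1 the difference was -0.24 and passed (adjusted p = 0.0215). Zmat3, an RNA-binding zinc finger gene, differed by 0.03 (adjusted p = 0.733).

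**Figure D3:**
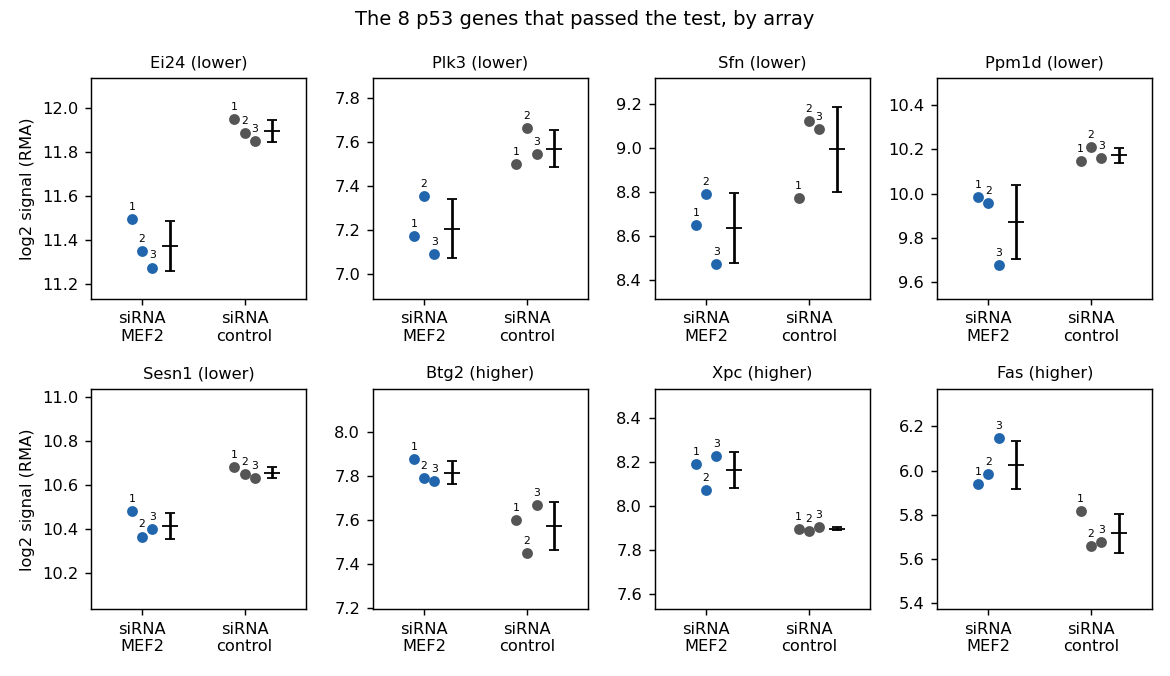
Log2 signal on each array of the 8 p53 genes that passed the test, siRNA MEF2 on the left and siRNA control on the right of each panel, with replicate numbers and the mean ± SD (n = 3 each). Every panel spans 1 log2 unit, and the groups overlap only for Sfn, where control replicate 1 (8.77) lies under siRNA MEF2 replicate 2 (8.79).

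Of the 10 genes of cell death 1 fell and 1 rose, shares near those of all genes (11.7% and 9.04%). Ei24, an endoplasmic reticulum protein first found as p53-induced and needed for autophagy, showed the largest difference of the 32 genes. It read 11.50, 11.35 and 11.28 with siRNA MEF2 and 11.95, 11.89 and 11.85 with control siRNA. The groups were well apart, and the mean was 11.37 ± 0.11 in siRNA MEF2 and 11.89 ± 0.05 in control (SD, n = 3 each; log2 difference -0.52, SE 0.07, 1.43-fold lower, limma adjusted p = 0.000385). The call held in all 14 alternatives, with differences from -0.58 to -0.44.

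Fas, the death receptor for FAS ligand, read 5.94, 5.98 and 6.15 in siRNA MEF2 samples and 5.82, 5.66 and 5.67 in control samples. The siRNA MEF2 values were all higher, by 0.31 on average (SE 0.07, adjusted p = 0.0104), at signals under every array's median of the negative controls. After quantile normalization and cyclic loess the difference was 0.22 and 0.23 and did not pass (adjusted p = 0.0687 and 0.0645). As deposited, the other 2 receptor genes did not pass. Tnfrsf10b, the mouse TRAIL receptor, differed by -0.13 (adjusted p = 0.314) and Eda2r, a receptor of the same family, by 0.10 (adjusted p = 0.284). Tnfrsf10b was 10.02 in siRNA MEF2 replicate 1, above all control values, against 9.67 and 9.66 in replicates 2 and 3, and without replicate 1 it passed with -0.24 (adjusted p = 0.0232).

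The direct triggers of mitochondrial apoptosis gave no call. Bbc3, encoding PUMA, read 7.38, 7.31 and 7.31 in siRNA MEF2 samples and 7.21, 7.23 and 7.18 in control samples. The groups did not overlap, but the difference of 0.13 did not pass over all genes (adjusted p = 0.12), and the signals lie at the level of the negative controls. Pmaip1, encoding NOXA, differed by 0.11 (adjusted p = 0.224). Perp, which encodes a junction protein that also takes part in p53-driven death, read 6.63, 6.72 and 6.61 in siRNA MEF2 samples, against 6.45, 6.46 and 6.56 in control samples. It was higher in every siRNA MEF2 sample by a mean of 0.16 and missed the threshold (adjusted p = 0.0691), passing with array weights (0.0496). Phlda3, an inhibitor of the kinase AKT, Trp53inp1, a stress protein that aids p53 and autophagy, and Aen, a nuclease, differed by 0.05, 0.07 and -0.03 (adjusted p = 0.563, 0.616 and 0.766).

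Of the 5 DNA repair genes Xpc rose and 4 did not pass, where 9.04% of all genes rose and 11.7% fell. All 5 lie at or above the median signal, where 6.8% of all genes rose and 21.9% fell. Xpc, whose product finds bulky lesions for nucleotide excision repair, had log2 signals of 8.19, 8.07 and 8.23 with siRNA MEF2, against 7.90, 7.89 and 7.90 with control siRNA. The control values were nearly equal and lay below all siRNA MEF2 values, a difference of 0.27 (SE 0.06, adjusted p = 0.00914) that was called in all 14 alternatives. Ddb2 and Ercc5, a damage sensor and an endonuclease of the same pathway, differed by -0.07 and 0.07 (adjusted p = 0.468 and 0.413). Polk, a polymerase that copies past lesions, differed by -0.09 (adjusted p = 0.344). Rrm2b, the p53-induced subunit of ribonucleotide reductase, read 8.20, 8.27 and 7.93 in siRNA MEF2 samples and 8.33, 8.30 and 8.37 in control samples. All siRNA MEF2 values were lower, but the difference of -0.20 did not pass (adjusted p = 0.0979), while after median centring it was -0.25 and did (0.0408).

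The sestrins, which sense amino acids and stress and restrain the growth kinase mTORC1, gave different readings. Sesn1, the member most tied to p53, read 10.48, 10.37 and 10.40 in siRNA MEF2 samples and 10.68, 10.65 and 10.63 in control samples. All siRNA MEF2 values were lower and the difference was -0.24 (SE 0.06, 1.18-fold lower, adjusted p = 0.0124). Cyclic loess (adjusted p = 0.0725) and quantile normalization (0.0843) ended its call, as did leaving out siRNA MEF2 replicate 2 (0.0541). Sesn3, induced by FOXO factors, differed by -0.13 (95% interval -0.27 to 0.01, adjusted p = 0.151). Sesn2, which is not among the 32 and is also induced by ATF4, read 9.70, 9.55 and 9.53 in siRNA MEF2 samples and 9.12, 9.17 and 9.15 in control samples, and rose by 0.45 (SE 0.06, adjusted p = 0.000584). Sesn1 and Sesn2 thus passed in opposite directions.

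**Figure D4:**
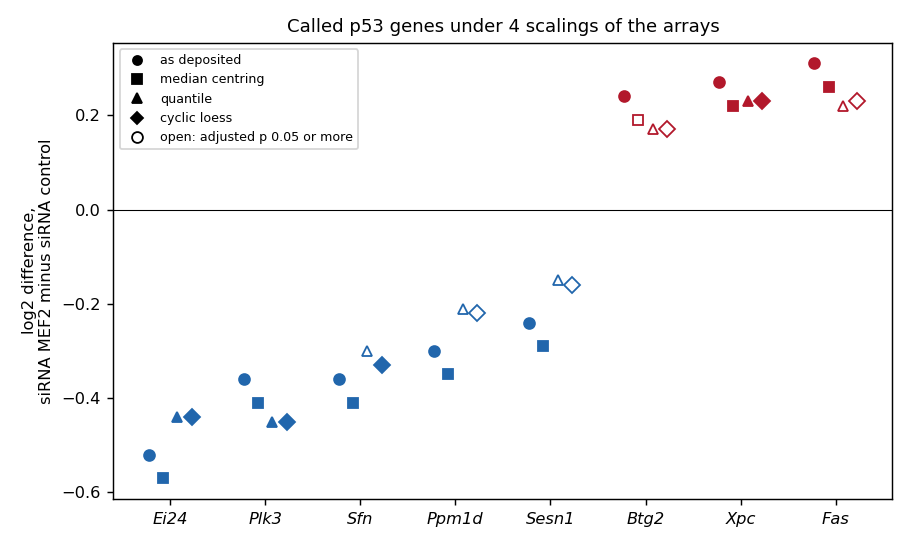
Log2 difference, siRNA MEF2 minus siRNA control, of the 8 p53 genes that passed, as deposited and after median centring, quantile normalization and cyclic loess (filled symbols, adjusted p under 0.05). Every gene kept its sign, and Ei24, Plk3 and Xpc were called under all 4 scalings.

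A second list of 24 p53 target genes leaned to lower values. It was drawn up for this comparison with earlier results of these data known, among them those of Cdkn1a and Sesn2. Of these 24 genes 14 fell (58.3%), 1 rose (Sesn2) and 9 did not pass, with a median log2 difference of -0.23. The background over all genes was 11.7% lower, and 21.9% lower among genes at or above the median signal, where 20 of the 24 lie. The list was not chosen independently of these data, and the difference between it and the 32 genes was not tested. Cdkn1a, the p21 cell-cycle inhibitor and the best-known p53 target, fell by 1.41, the largest fall among all 22084 genes tested. It read 10.30, 10.27 and 9.95 in siRNA MEF2 samples and 11.55, 11.61 and 11.60 in control samples (limma adjusted p = 4.88e-06). Its groups were far apart.

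Gdf15, a secreted stress factor, fell by 0.46 (1.37-fold, adjusted p = 0.00483) and Polh, a polymerase that copies past ultraviolet damage, by 0.39 (1.31-fold, adjusted p = 0.000974). Fbxw7, a ubiquitin ligase subunit that removes cyclin E and MYC, fell by 0.32 (adjusted p = 0.00389) and the kinase receptor gene Epha2 by 0.31 (adjusted p = 0.006).

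The death and survival genes on this list included Apaf1, the core of the apoptosome, and Pidd1, which activates caspase-2. They fell by 0.31 and 0.29 (adjusted p = 0.012 and 0.00609). Triap1, an inhibitor of the apoptosome, fell by 0.29 (adjusted p = 0.0131), Dram1, a lysosomal autophagy gene, by 0.27 (0.0363), and Ninj1, which acts in membrane rupture, by 0.27 (0.0256). Tap1, a peptide transporter, fell by 0.25 (0.00909), Tigar, which lowers glycolytic flux, by 0.21 (0.0261), and the ferrireductase gene Steap3 by 0.19 (0.0282). Bax, the pore-forming effector of apoptosis, read 8.50, 8.31 and 8.45 in siRNA MEF2 samples, against 8.49, 8.66 and 8.53 in control samples. Its groups overlapped and the difference of -0.14 did not pass (adjusted p = 0.151). Apaf1 and Triap1 were not called without siRNA MEF2 replicate 2 or control replicate 3. Triap1 also lost its call after quantile normalization (limma adjusted p = 0.0695). Dram1, Tigar and Steap3 each lost their call in 7 of 14 alternatives, among them the fits without any array but siRNA MEF2 replicate 1. Ninj1 lost its call in 5, including those without siRNA MEF2 replicate 2, siRNA MEF2 replicate 3 or control replicate 2. Without siRNA MEF2 replicate 2 the list had 8 lower calls and without control replicate 3 it had 9, as it had after quantile normalization.

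**Figure D5:**
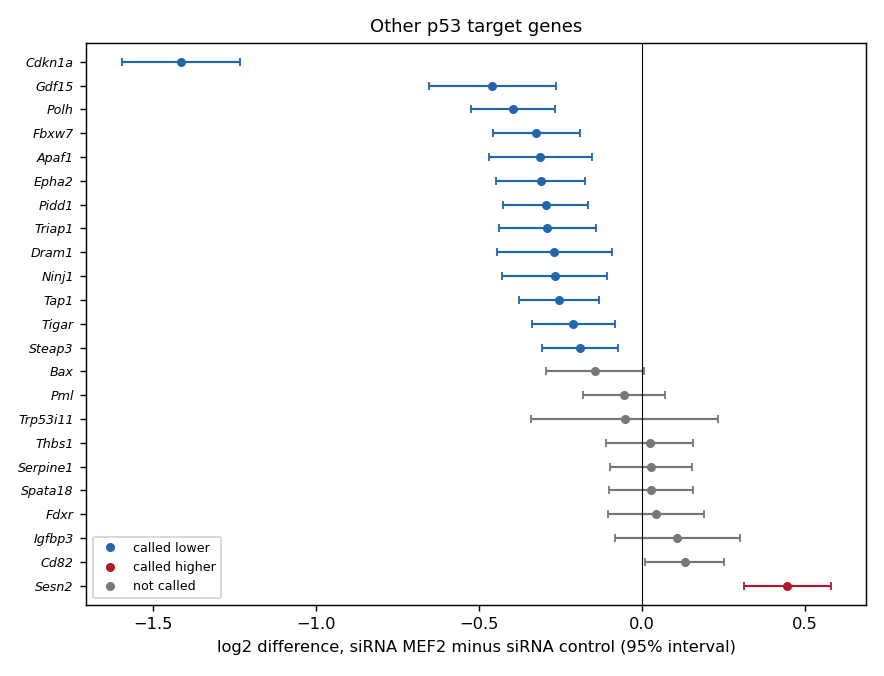
Log2 difference, siRNA MEF2 minus siRNA control, of 23 other p53 target genes with the 95% interval of the limma fit (3 arrays per group), 1 gene of the list left out of the drawing. The 13 drawn as called lower run from Cdkn1a (-1.41) to Steap3 (-0.19), and Sesn2 (0.45) was called higher.

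Of 28 enzymes and cofactors that act on the p53 protein, 3 were lower and 3 higher as deposited (10.7% each), with a median of -0.04. The background over all genes was 11.7% lower and 9.04% higher. Only 2 of the 28 lie below the median signal, and at or above it 21.9% of all genes fell and 6.8% rose. The counts of the 28 depended on the scaling. They were 6 lower and 1 higher with median centring, and 1 lower and 6 higher with quantile normalization or with cyclic loess. The checkpoint kinase genes Chek1 and Chek2, which phosphorylate p53 after damage, fell by 0.31 and 0.19 (adjusted p = 0.00892 and 0.0457), and Usp7, which strips ubiquitin from MDM2 and p53, fell by 0.17 (0.0476). Trp53bp1, a repair scaffold that binds p53, rose by 0.32 (0.00822), the acetyltransferase gene Kat5 by 0.21 (0.0344) and Rpl5, a ribosomal protein that can bind MDM2, by 0.23 (0.0179). Rpl5 has 5 probe sets, which differed by 0.20 to 0.24, and 4 of them have neighbours on other chromosomes, so signal from copies of the gene cannot be told apart. Cdkn2a, whose ARF product inhibits MDM2, differed by -0.15 (adjusted p = 0.0781). The call of Usp7 was lost in 10 of 14 alternatives, among them all 6 fits that leave out 1 array. That of Chek2 was lost in 8 and that of Kat5 in 6. Rpl5 lost its call in 3, which were median centring and the fits without control replicate 2 or 3. Chek1 and Trp53bp1 were called in all 14, and without siRNA MEF2 replicate 2, siRNA MEF2 replicate 3 or control replicate 2 Chek1 was the 1 lower call, while without control replicate 2 or 3 Trp53bp1 was the 1 higher call.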

How the data were processed

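Gene expression was measured in 6 MA-10 samples, 3 per group, on 1 array each. Groups and replicate numbers come from the sample titles, which do not say whether the samples were separate cultures, so p-values measure only the spread between these samples, and that spread could be technical. The authors deposited log2 signal per probe set, RMA values at gene level per the file headers. RMA and Partek are named, without versions, in the submitters' processing notes, and no source used here gives the annotation release. RMA as usually run sets the probes of all arrays to 1 distribution, which hides a shift shared by most genes. The annotated table and the series matrix held the same values for 35557 probe sets (largest difference 0.0), and 0 columns of per-sample values were left out. No depth exists for arrays, and their number limits the precision.

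Of the probe sets 25522 had 1 gene name, from the deposited symbols and accessions and a RefSeq table (GRCm38.p6), 7196 were controls without an accession, 2 listed several symbols and 2837 stayed unnamed. They covered 22084 genes, and the brightest probe set stood for a gene with several. Differences were tested with limma 3.58.1 (lmFit, eBayes; R 4.3.3), two-sided, no covariates, with Benjamini-Hochberg adjustment over all 22084 genes and a threshold of 0.05; no filter on low signal was used. A fold, 2 to the power of the difference, is given only where both means are at least 8, and negative control medians are those of 5222 probe sets, a comparison level and not a detection limit. The fit was tested on simulated data. 1 called gene of the list of other p53 targets is counted there but not reported here. Counts of a list stand beside the share of all genes called, with no list test. Motifs were searched by pattern on both strands of the RefSeq windows. All p53 genes, the targeted genes, every called gene of the other lists, and Bax, Sesn2, Gdf15 and Cdkn2a were to be named; the members and lists were chosen with earlier results of these data known. The 14 alternatives were 3 scalings, a filter on signal, the mean over probe sets, a variance trend with robust estimation, array weights, the replicate block and each array left out; another probe set for Sfn was added after its values were seen.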

Additional observations from a re-analysis of the deposited data

How the results depend on the processing

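The 8 called p53 genes kept their direction in all 110 fits of a gene under an alternative and their call in 88, and 24 genes that did not pass gained a call in 5 of 327 fits. Lower and higher calls among the 32 were 2 and 1 after quantile normalization, 3 and 1 after cyclic loess, 4 and 1 over genes above the median signal, and 3 lower with the mean over probe sets. Without 1 array they ranged from 3 to 7 lower and from 2 to 3 higher. The median difference of the 32 was 0.039 as deposited, and it was -0.011 with median centring, -0.0047 with quantile normalization, -0.0035 with cyclic loess, -0.083 over genes above the median signal (20 of the 32), and 0.0019 to 0.049 without 1 array. The other p53 targets had 9 lower and 2 higher after quantile normalization, 2 higher after cyclic loess and with a variance trend, and 8 to 14 lower without 1 array, with 1 higher each time. The enzymes and cofactors had 6 lower and 1 higher with median centring, 1 lower and 6 higher with quantile normalization or cyclic loess, 5 of each over genes above the median signal, 5 higher with a variance trend or array weights, and 1 to 2 lower and 1 to 3 higher without 1 array. Over all genes 2578 were lower and 1997 higher, against 3591 and 826 with arrays centred on their medians, 1700 and 1376 with quantile normalization, 1923 and 1169 with cyclic loess, and 961 higher over genes above the median signal, with 1600 to 2610 lower and 814 to 2073 higher without 1 array. Lower calls over all genes were 1667 without siRNA MEF2 replicate 2 and 1600 without control replicate 2, and higher calls were 814 without siRNA MEF2 replicate 2 and 1115, 920 and 887 without control replicates 1, 2 and 3. The filter tests fewer genes by construction; otherwise the cause was not tested.

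Signs that changed belonged to genes that did not pass. After quantile normalization and cyclic loess Trp53 was 0.065 and 0.056, Ccng1 0.084 and 0.078, Trp63 -0.035 under both, Trp73 -0.0039 and -0.0065, Phlda3 -0.041 under both, and Plk2 -0.0055 and -0.00046. After median centring Phlda3 was -0.004 and Zmat3 -0.018. Without 1 array Ccng1 ranged from -0.072 to 0.05, Gadd45a from -0.0024 to 0.10, Trp53inp1 from -0.064 to 0.15, Zmat3 from -0.0072 to 0.075 and Aen from -0.07 to 0.0098.

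The replicate numbers did not meet the rule for pairing: same-numbered samples correlated in their deviations from the group means at 0.113, 0.076 and 0.096 across genes, although each sample correlated best with its own number, a hint from the data and not the design. With the replicate number as a block 5 p53 genes were lower and 3 higher, 14 and 1 of the other targets, 2 and 3 of the enzymes and cofactors (Usp7 lost, adjusted p = 0.0525), and 2833 and 2475 of all genes. Signal over background limits the 11 p53 genes with a group mean at or under the highest negative control median, among them Fas and Plk3.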
